A study of Sus scrofa with 4 samples.

Results

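The genes described here were 48 genes of the ATF4 stress response of the pig, taken by name from a list of known members of the response. The list was drawn up with earlier results of these cultures known, although no measured level entered it. The list joined the transcription factors of the response (6 genes), its stress effectors (6), enzymes of serine and one-carbon metabolism (9), enzymes of asparagine and proline synthesis (3), amino acid transporters (8), aminoacyl-tRNA synthetases (13) and regulators of the translation factor eIF2α (3). All 48 were found among the 25880 genes of the deposited count table. RNA was sequenced from fibroblasts grown from the ear skin of a pig described as post-neonatal (n = 1, passage 1), from induced neural stem cell-like cells, or iNSLCs, made from them (n = 1, passage 1), and from clones of induced pluripotent stem cells, or iPSCs (n = 2, passage 3). The fibroblasts were the starting cells. Electroporation with the EP-B set of episomal vectors, which encoded human reprogramming factors, EGFP and a dominant-negative mouse p53, gave the iNSLCs, which grew in a medium used elsewhere for naive-state pluripotent cells. Further growth in an embryonic stem cell medium with IWP2, an inhibitor of WNT, and with TGF-β1 and activin A gave iPSC colonies that were picked by hand as clones. The study checked the loss of the vectors only at later passages than those sequenced. In the study's protocol, which is described for marmoset cells, transfected fibroblasts were placed on mouse embryonic feeder cells. All cultures came from 1 animal, so p-values measured the spread between the clones and not between animals, and cell state, medium, passage and vector cannot be told apart.

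ATF4 is a transcription factor whose protein is made when kinases phosphorylate eIF2α, for example under amino acid shortage or protein misfolding in the endoplasmic reticulum. It raises genes that import amino acids, make serine, asparagine and proline, and charge tRNAs with amino acids. Under prolonged stress it also raises genes that limit growth or favour cell death. Because ATF4 is controlled largely at translation, its transcript level does not give the amount of ATF4 protein.

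The total count ranged from 21640374 to 62421521 per library, and a gene with 0 counts could have lain at up to 0.0648 to 0.127 CPM, the TMM-scaled level of 3 counts. CPM are counts scaled for library size, and levels are given below in the order fibroblast, iNSLC, iPSC clone 1, iPSC clone 2. The 6 fibroblast markers summed to 136928 CPM in fibroblasts, 52519 CPM in iNSLCs, and 866 and 887 CPM in the iPSC clones. The 4 neural stem markers measured summed to 52.4, 633, 564 and 632 CPM. These sums were close in iNSLCs and iPSCs, but the single genes were not. By the edgeR test 2 of the 4 were lower in iPSCs than in iNSLCs and none was higher (median log2 ratio -1.21). Summed levels of the 4 neuronal markers were 10.8, 213, 115 and 109 CPM, and 3 of the 4 were called lower in iPSCs than in iNSLCs (median log2 ratio -5.51). Those of the 5 pluripotency markers measured were 0.929, 435, 1090 and 1091 CPM. The vector set encoded OCT4 (POU5F1), NANOG, SOX2 and LIN28, which are on this marker list. The part of vector transcripts in these sums was not tested. Summed proliferation markers (6 genes) gave 331, 1573, 1817 and 2027 CPM. Endothelial markers (4 genes) summed to 19.5 to 190 CPM, blood and immune markers (4 genes) to 4.26 to 18.4 CPM, and TP63, the keratinocyte marker measured, lay between 0.612 and 8.72 CPM. POU5F1, NANOG, FABP7, NEUROG1, KDR and TEK had 0 counts in the fibroblast library and NEUROG1 had 0 in clone 1. The part of these differences in cell makeup in the results below was not tested, and in such bulk samples fewer cells of a type and less RNA per cell cannot be told apart.

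Most of the 48 genes were highest in fibroblasts, lowest in iNSLCs and intermediate in iPSCs. SLC7A3, SHMT1, MTHFD1, ALDH1L2 and WARS1 were among those that departed from this order. Fibroblasts had the highest level for 41 of the 48 genes, which was also so for 36.3% of the 15739 genes tested. The iNSLC library had the lowest level for 36 of the 48, against 23.0% of all genes, and lay at least 2-fold under each other library for 18, against 1.88%. Both clones lay between iNSLCs and fibroblasts for 33 genes, against 12.6% of all genes. The 48 genes together took 1.20% of all counts in fibroblasts, 0.451% in iNSLCs and 0.890% in each iPSC clone.

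**Figure D1:**
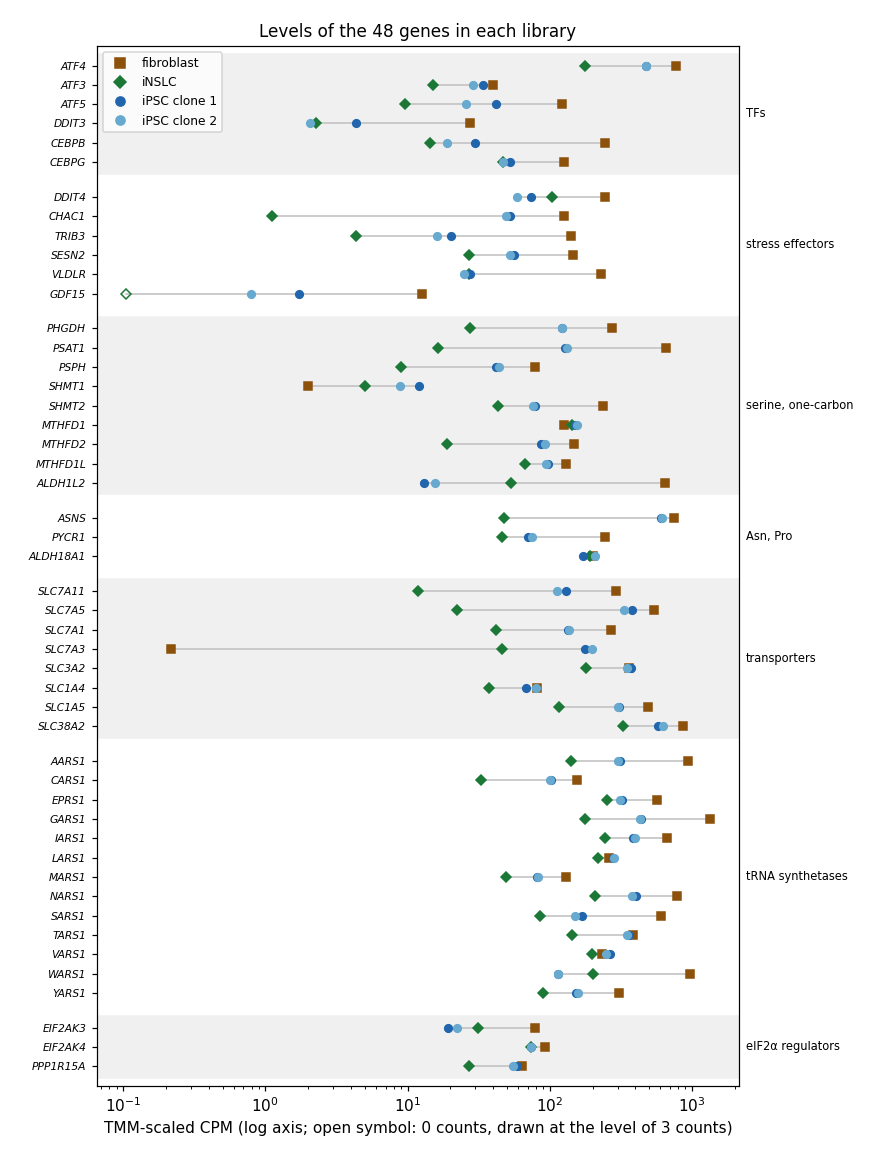
TMM-scaled CPM (log axis) of each of the 48 genes in the 4 libraries, grouped by role; squares are fibroblasts, diamonds iNSLCs and circles the iPSC clones, and the open diamond is GDF15 at 0 counts, drawn at the level of 3 counts. The fibroblast square stands rightmost for 41 genes and the iNSLC diamond leftmost for 36.

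Against fibroblasts, 35 of the 48 genes fell in iPSCs, 2 rose and 11 did not pass the edgeR quasi-likelihood test, where 27.5% of all genes tested fell and 29.6% rose (57.1% in either direction). Against iNSLCs, 33 of the 48 were higher in iPSCs, 2 were lower and 13 did not pass, where 14.1% of all genes were higher and 14.1% lower (28.1% in either direction). The median log2 ratio of the 48 genes was -0.92 for iPSCs against fibroblasts and 0.98 for iPSCs against iNSLCs, beside 0.05 and 0.01 over all genes at 1 CPM or more. By size, with at least a 2-fold difference and 10 CPM in the higher group, 40 of the 48 were lower in iNSLCs than in fibroblasts and 1 was higher, against 14.6% and 10.8% of all genes. The median log2 ratio of the 48 genes was -2.19 in this comparison, beside 0.01 over all genes. By the same rule, 23 were lower and 1 was higher in iPSCs than in fibroblasts, against 16.0% and 11.5% of all genes, and 21 were higher and 1 was lower in iPSCs than in iNSLCs, against 5.88% and 6.79%. No p-value is given for iNSLCs against fibroblasts, since each had 1 library. In all, 26 genes were called lower in iPSCs than in fibroblasts and higher than in iNSLCs, the most frequent combination, against 2.32% of all genes tested.

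Scaling mattered for the fibroblast comparisons. With total counts in place of TMM, the median of all genes moved by 0.57 for iPSCs against fibroblasts and by 0.58 for iNSLCs against fibroblasts on the log2 scale, and by -0.01 for iPSCs against iNSLCs. On that scale 24 of the 48 genes fell and 8 rose against fibroblasts, where 16.8% of all genes fell and 44.9% rose. Against iNSLCs 33 were then higher and 3 lower, where 14.1% of all genes were higher and 14.6% lower. The genes at least 2-fold lower in iNSLCs than in fibroblasts numbered 27 with total counts (7.94% of all genes) and 40 with TMM.

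**Figure D2:**
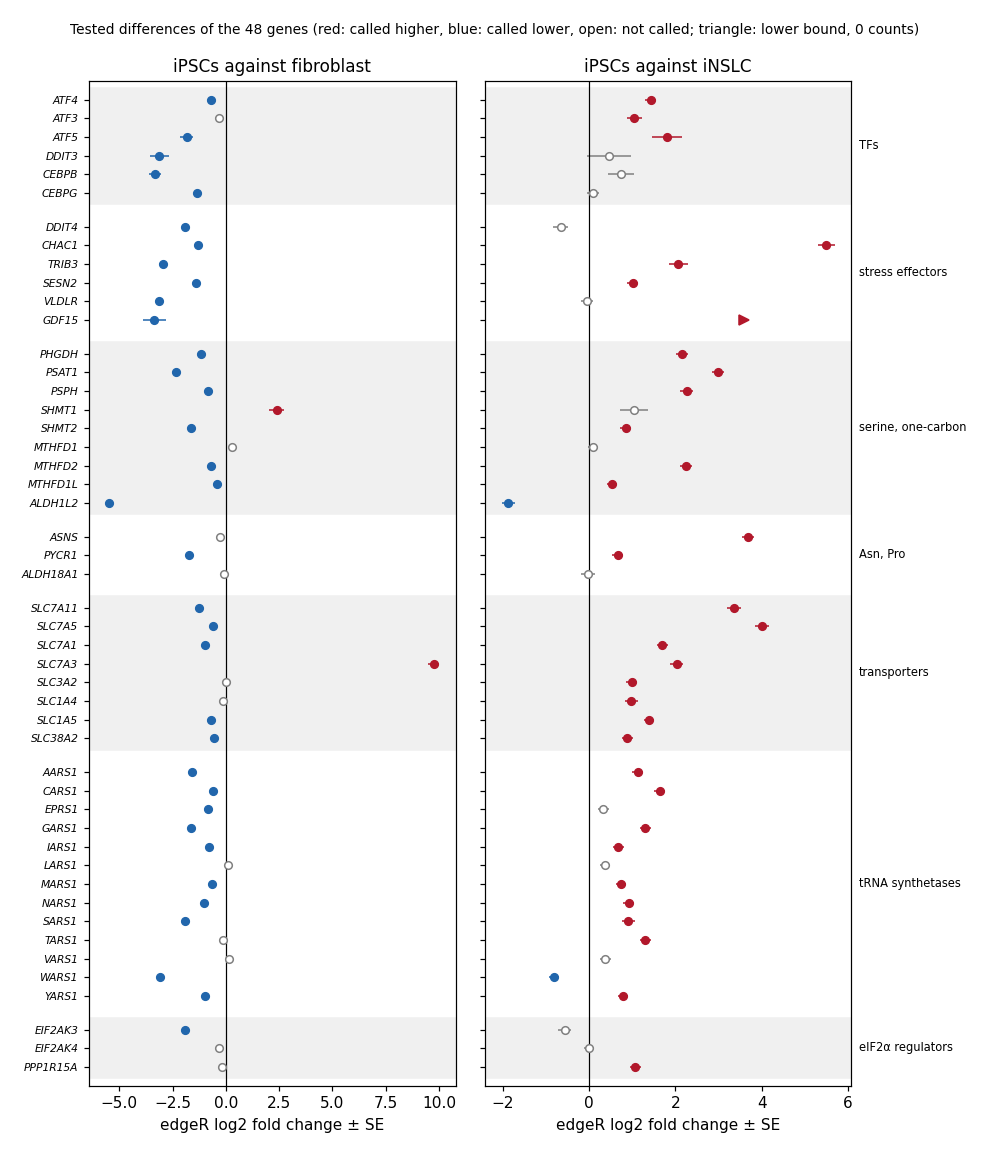
edgeR log2 fold change of each of the 48 genes (horizontal axes, bars ± SE) in iPSCs (n = 2) against the fibroblast library (left) and against the iNSLC library (right), with called genes filled and the triangle marking GDF15 at its lower bound. On the left 35 genes lie below 0 and called, with SLC7A3 and SHMT1 called above it, and on the right 33 are called above 0 and ALDH1L2 and WARS1 below it.

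Of the 6 transcription factors, 5 fell in iPSCs against fibroblasts and 3 were higher than in iNSLCs, beside 27.5% and 14.1% of all genes. ATF4 (ENSSSCG00000000084, chromosome 5, 8738880 to 8745368, Sscrofa11.1) stood at 777, 177, 474 and 476 CPM. Fibroblasts were highest, iNSLCs lowest and the clones nearly equal. Its level in iPSCs was 1.64-fold lower than in fibroblasts (log2 -0.71 ± 0.11 SE, edgeR adjusted p = 0.00588) and 2.69-fold higher than in iNSLCs (log2 1.43 ± 0.12, adjusted p = 0.00421). With total counts the first of these calls was lost (log2 -0.14, adjusted p = 0.341). The row was named ATF4 by position and extends beyond the annotated gene, with 29.8% of its exon bases inside it, so its counts may include other transcripts.

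ATF5, a related factor that is likewise controlled at translation, had 121, 9.67, 41.8 and 25.8 CPM. It was 3.58-fold lower in iPSCs than in fibroblasts (edgeR adjusted p = 0.00593) and 3.50-fold higher than in iNSLCs (adjusted p = 0.0243). ATF3, a stress-induced factor, differed from this: at 39.7, 15.2, 33.8 and 29.1 CPM it was 2.07-fold higher in iPSCs than in iNSLCs (adjusted p = 0.0188), with no call against fibroblasts (1.26-fold lower, adjusted p = 0.143). The C/EBP partners of ATF4 were not called higher in iPSCs than in iNSLCs. CEBPB fell from 244 CPM in fibroblasts to 29.8 and 18.9 CPM in the clones, 10.01-fold (edgeR adjusted p = 0.000929), and stood at 14.4 CPM in iNSLCs (1.68-fold, adjusted p = 0.135). CEBPG had 126, 47.3, 52.9 and 47.2 CPM, and was 2.53-fold lower in iPSCs than in fibroblasts (adjusted p = 0.00141). Its clones lay on both sides of the iNSLC level (1.06-fold, adjusted p = 0.681).

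DDIT3, which encodes CHOP, a factor that favours cell death under lasting stress, was low outside fibroblasts. It had 27.3, 2.27, 4.31 and 2.08 CPM, from 1266, 65, 102 and 95 counts. The fall in iPSCs was 8.57-fold (log2 -3.13 ± 0.45, edgeR adjusted p = 0.00451), while the clones lay on both sides of the iNSLC level (adjusted p = 0.523). DDIT3 (chromosome 5, 22781192 to 22789825) was also named by position, 27.4% of its exon bases lie inside the annotated gene, and 1948 of them are shared with MARS1 on the opposite strand. Reads that fell in the shared bases could not be assigned to one gene or the other.

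All 6 stress effectors fell in iPSCs against fibroblasts, and all 6 were at least 2-fold lower in iNSLCs, beside 27.5% and 14.6% of all genes. Their median log2 ratio of -4.06 for iNSLCs against fibroblasts was the lowest among the roles. CHAC1, an enzyme that breaks down glutathione, gave the largest ratio of iPSCs to iNSLCs among the genes with counts in every library. Its levels were 127, 1.12, 52.8 and 48.9 CPM, from 5873, 32, 1250 and 2238 counts. The iNSLC library stood 114-fold under fibroblasts (95% interval 80.4 to 166, counting error only), and iPSCs stood 45.5-fold over iNSLCs (log2 5.50 ± 0.19, edgeR adjusted p = 0.000986) and 2.49-fold under fibroblasts (adjusted p = 0.00125).

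TRIB3, a pseudokinase that is induced by ATF4 and CHOP and restrains the response, had 141, 4.33, 20.3 and 16.1 CPM. It was 32.6-fold lower in iNSLCs than in fibroblasts (27.3 to 39.2), and in iPSCs 7.74-fold lower than in fibroblasts (edgeR adjusted p = 0.000411) and 4.21-fold higher than in iNSLCs (adjusted p = 0.00614). SESN2, a sensor of leucine that restrains mTORC1, followed the same order at 145, 27.0, 55.9 and 52.7 CPM, with iPSCs 2.01-fold over iNSLCs (adjusted p = 0.00973). GDF15, a secreted stress hormone, was weak, with 582, 0, 41 and 36 counts. It was 9.98-fold lower in iPSCs than in fibroblasts (adjusted p = 0.00579) and at least 12.0-fold higher than in iNSLCs (adjusted p = 0.0221, bound at 3 counts for iNSLCs), or 2.91 and 4.05 on the log2 scale with clone 2 or clone 1 alone.

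VLDLR and DDIT4 were not called higher in iPSCs than in iNSLCs. VLDLR, a lipoprotein receptor, had 231, 27.1, 27.5 and 24.8 CPM, 8.81-fold lower in iPSCs than in fibroblasts (edgeR adjusted p = 0.000221) with no call against iNSLCs (1.04-fold lower, adjusted p = 0.775). DDIT4, an inhibitor of mTORC1 that hypoxia and glucocorticoids also induce, had 247, 104, 73.5 and 58.5 CPM. It was lower in both clones than in iNSLCs (1.58-fold, adjusted p = 0.0508), and this difference was called with DESeq2 (adjusted p = 0.0282) and with total counts (adjusted p = 0.0391).

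The enzymes that make serine moved together. PHGDH, PSAT1 and PSPH catalyse the successive steps from a glycolytic intermediate to serine. PHGDH (chromosome 4, 101445977 to 101478147) had 275, 27.4, 122 and 122 CPM. PSAT1 (chromosome 1, 231146345 to 231171361) had 663, 16.5, 128 and 132 CPM. PSPH had 78.2, 9.003, 41.9 and 44.1 CPM. In each, iNSLCs were lowest, fibroblasts highest and both clones between them, an order that 12.6% of all genes tested also had. In iNSLCs they stood 10.1-fold (9.35 to 10.8), 40.2-fold (36.7 to 44.2) and 8.68-fold (7.65 to 9.89) under fibroblasts. The return in iPSCs against iNSLCs was 4.46-fold for PHGDH (log2 2.16 ± 0.13, edgeR adjusted p = 0.00229), 7.88-fold for PSAT1 (log2 2.98 ± 0.14, adjusted p = 0.00160) and 4.78-fold for PSPH (log2 2.26 ± 0.15, adjusted p = 0.00258). Against fibroblasts iPSCs remained 2.26-fold, 5.10-fold and 1.82-fold lower (adjusted p = 0.00140, 0.000289 and 0.00462), and the call of PSPH was lost with total counts (adjusted p = 0.119).

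The mitochondrial one-carbon enzymes differed from each other. SHMT2, which splits serine into glycine and a one-carbon unit in mitochondria, had 239, 43.1, 78.8 and 76.1 CPM. It was 3.08-fold lower in iPSCs than in fibroblasts (edgeR adjusted p = 0.000607) and 1.80-fold higher than in iNSLCs (adjusted p = 0.0132). MTHFD2, which oxidises the unit further, had 147, 19.0, 86.5 and 93.3 CPM. Its iPSC level was 4.73-fold over iNSLCs (log2 2.24 ± 0.14, adjusted p = 0.00236) and 1.64-fold under fibroblasts (adjusted p = 0.00745; 0.389 with total counts). MTHFD1L, which releases formate, moved little: 130, 66.8, 97.3 and 94.9 CPM gave calls of 1.36-fold lower than fibroblasts (adjusted p = 0.0277) and 1.44-fold higher than iNSLCs (adjusted p = 0.0370), both lost with DESeq2 (0.0696 and 0.0590) and the first turned to log2 0.13 with total counts.

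ALDH1L2, the mitochondrial enzyme that burns one-carbon units to carbon dioxide, fell from iNSLCs to iPSCs, where the enzymes above were higher. Its levels were 642, 53.01, 13.05 and 15.6 CPM, from 29729, 1519, 309 and 712 counts. It fell step by step, with iNSLCs 12.1-fold under fibroblasts (11.5 to 12.8) and iPSCs 3.71-fold under iNSLCs (log2 -1.88 ± 0.15, edgeR adjusted p = 0.00367). At 44.9-fold it had the largest fall from fibroblasts to iPSCs among the 48 genes (log2 -5.48 ± 0.16, adjusted p = 0.000168). By the edgeR test with TMM, only WARS1 of the other genes was also called lower in iPSCs than in both other cell types.

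The cytosolic counterparts were not called lower in either comparison. MTHFD1, the cytosolic enzyme for the same one-carbon steps, had 127, 144, 150 and 155 CPM and no call in either comparison (edgeR adjusted p = 0.121 and 0.637), though with total counts it was called higher than in fibroblasts (log2 0.83, adjusted p = 0.00393). SHMT1, the cytosolic counterpart of SHMT2, rose from 1.99 CPM in fibroblasts to 11.9 and 8.81 CPM in the clones (5.22-fold, log2 2.38 ± 0.35, adjusted p = 0.00509), with 5.06 CPM in iNSLCs (2.05-fold under iPSCs, adjusted p = 0.0785). Of its 4447 exon bases, 2324 are shared with SMCR8 on the opposite strand, and reads in those bases could not be assigned to one gene or the other.

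Per exon length, the balance within these pairs shifted. SHMT1 made up 0.274% of the summed TPM of SHMT1 and SHMT2 in fibroblasts, 3.73% in iNSLCs, and 4.76% and 3.68% in the clones, so SHMT2 remained the main form throughout. MTHFD2 made up 73.7% of MTHFD1 and MTHFD2 in fibroblasts, 24.2% in iNSLCs, and 58.3% and 59.3% in the clones. By this measure the MTHFD1 transcript was the more abundant of that pair in iNSLCs, and the MTHFD2 transcript in the other 3 libraries. The order in the clones depended on the exon lengths used, 7045 bases for MTHFD1 and 2912 for MTHFD2. Without the lengths, MTHFD1 was above MTHFD2 in the clones (150 and 155 CPM against 86.5 and 93.3 CPM).

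**Figure D3:**
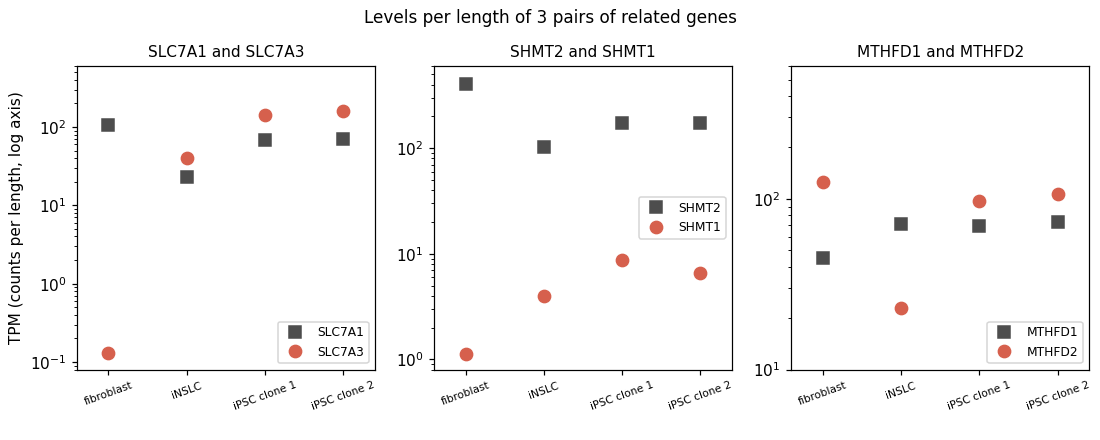
Levels per exon length (TPM, log axes) in the 4 libraries for 3 pairs of related genes, squares and circles standing for the 2 genes of a pair. SLC7A3 lies far under SLC7A1 in fibroblasts (0.124% of the pair) and above it in the other libraries (63.3% to 69.5%), SHMT1 stays under SHMT2 in each library, and MTHFD2 lies under MTHFD1 in iNSLCs.

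ASNS, which makes asparagine from aspartate and is a classic ATF4 target, combined a deep drop in iNSLCs with a level near that of fibroblasts in iPSCs. ASNS (ENSSSCG00000015340, chromosome 9, 77318341 to 77336290) had 745, 47.9, 603 and 619 CPM, from 34521, 1373, 14285 and 28332 counts. The iNSLC library stood 15.6-fold under fibroblasts (14.7 to 16.4). In iPSCs ASNS was 12.8-fold over iNSLCs (log2 3.67 ± 0.14, edgeR adjusted p = 0.00111), and the 1.22-fold lower level than in fibroblasts was not called (log2 -0.29 ± 0.11, adjusted p = 0.0877) and turned to log2 0.28 with total counts (adjusted p = 0.0941). Per exon length, ASNS was the most abundant of the 48 genes in both clones, at 1168 and 1222 TPM, where PSAT1 led in fibroblasts with 1596 TPM. These ranks depended on the exon lengths used. Without them, GARS1 was above PSAT1 in fibroblasts (1341 against 663 CPM), and SLC38A2 was slightly above ASNS in clone 2 (622 against 619 CPM).

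Proline synthesis was mixed. PYCR1, the mitochondrial enzyme of the last step, had 244, 45.8, 70.1 and 75.3 CPM and was 3.36-fold lower in iPSCs than in fibroblasts (edgeR adjusted p = 0.000577) and 1.59-fold higher than in iNSLCs (adjusted p = 0.0247). ALDH18A1, the enzyme of the first step, had 203, 192, 171 and 207 CPM and no call in either comparison (adjusted p = 0.602 and 0.913). The first step thus stayed within 1.21-fold across the clones and within 1.06-fold between iNSLCs and fibroblasts, where the last step differed 5.32-fold.

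All 8 amino acid transporters were higher in iPSCs than in iNSLCs, where 14.1% of all genes were. In iNSLCs 7 of the 8 were at least 2-fold lower than in fibroblasts, where 14.6% of all genes were. SLC7A5, the light chain of the leucine transporter LAT1, had 540, 22.1, 379 and 334 CPM. It was 24.4-fold lower in iNSLCs than in fibroblasts (22.5 to 26.4) and 16.1-fold higher in iPSCs than in iNSLCs (log2 4.01 ± 0.17, edgeR adjusted p = 0.00136). The clones stood 1.51-fold under fibroblasts (adjusted p = 0.0179; 0.863 with total counts). SLC7A11, the light chain of the cystine and glutamate exchanger, had 291, 11.8, 129 and 113 CPM, 24.6-fold lower in iNSLCs than in fibroblasts (22.1 to 27.5). In iPSCs it was 10.3-fold over iNSLCs (log2 3.36 ± 0.17, adjusted p = 0.00176) and 2.40-fold under fibroblasts (adjusted p = 0.00194).

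Both light chains work only when bound to SLC3A2, their shared heavy chain, which changed far less. SLC3A2 had 362, 181, 371 and 348 CPM, with no call between iPSCs and fibroblasts (1.009-fold lower, edgeR adjusted p = 0.933), and it was 1.98-fold higher in iPSCs than in iNSLCs (adjusted p = 0.0100), while with total counts it was called higher than in fibroblasts (log2 0.56, adjusted p = 0.0144). The ratio of SLC7A5 to SLC3A2 per exon length (TPM) was 0.546 in fibroblasts, 0.0448 in iNSLCs, and 0.375 and 0.352 in the clones. For SLC7A11 to SLC3A2 the ratio was 0.225, 0.0183, 0.0979 and 0.0913. The size of these ratios depended on the exon lengths used, 4219 bases for SLC7A5, 5515 for SLC7A11 and 1548 for SLC3A2. Without the lengths, SLC7A5 was above SLC3A2 in fibroblasts (540 against 362 CPM). The heavy chain was the most abundant of the 48 genes per length in iNSLCs, but without the lengths SLC38A2 was above it (326 against 181 CPM).

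The cationic amino acid transporters SLC7A1 and SLC7A3, which carry arginine and lysine, exchanged places. SLC7A1 had 271, 41.9, 135 and 136 CPM, 2.003-fold lower in iPSCs than in fibroblasts (edgeR adjusted p = 0.00224) and 3.23-fold higher than in iNSLCs (adjusted p = 0.00322). SLC7A3 (chromosome X, 56936053 to 56943134) had 0.216, 46.2, 179 and 199 CPM, from 10, 1324, 4228 and 9087 counts. It was the only member with at least a 2-fold higher level at 10 CPM in iNSLCs than in fibroblasts (214-fold, 95% interval 116 to 447). In iPSCs it was 873-fold over fibroblasts (log2 9.75 ± 0.25, adjusted p = 0.000157) and 4.08-fold over iNSLCs (log2 2.03 ± 0.15, adjusted p = 0.00297). Of the summed TPM of the pair, SLC7A3 took 0.124% in fibroblasts, 63.3% in iNSLCs, and 67.5% and 69.5% in the clones.

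SLC1A5, SLC38A2 and SLC1A4, which also carry neutral amino acids, differed less than SLC7A5 between iNSLCs and the other cells. SLC1A5, a glutamine transporter, had 489, 116, 309 and 302 CPM, 2.62-fold higher in iPSCs than in iNSLCs (edgeR adjusted p = 0.00452) and 1.60-fold lower than in fibroblasts (adjusted p = 0.00727; 0.458 with total counts). SLC38A2, which imports small neutral amino acids with sodium, had 872, 326, 577 and 622 CPM, 1.84-fold higher than in iNSLCs (adjusted p = 0.0127) and 1.46-fold lower than in fibroblasts (adjusted p = 0.0166), a difference that turned to log2 0.03 with total counts. SLC1A4, a serine and alanine transporter, had 81.7, 37.6, 67.9 and 79.9 CPM, 1.97-fold higher than in iNSLCs (adjusted p = 0.0165) with no call against fibroblasts (adjusted p = 0.443).

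Of the 13 cytosolic aminoacyl-tRNA synthetases, which attach amino acids to their tRNAs, 10 fell in iPSCs against fibroblasts and none rose, against 6 and 3 with total counts. Over all genes 27.5% fell and 29.6% rose, against 16.8% and 44.9% with total counts. Against iNSLCs, 9 were higher and 1 was lower, beside 14.1% and 14.1% of all genes. In iNSLCs 11 of the 13 were at least 2-fold lower than in fibroblasts, beside 14.6% of all genes. GARS1, for glycine, had 1341, 176, 442 and 428 CPM, 7.60-fold lower in iNSLCs than in fibroblasts (7.38 to 7.82). In iPSCs it was 2.47-fold over iNSLCs (log2 1.30 ± 0.12, edgeR adjusted p = 0.00498) and 3.08-fold under fibroblasts (adjusted p = 0.000577). AARS1, for alanine, was similar at 936, 140, 311 and 301 CPM (2.18-fold over iNSLCs, adjusted p = 0.00679; 3.06-fold under fibroblasts, adjusted p = 0.000597). SARS1, for serine, had 604, 85.2, 170 and 151 CPM (1.88-fold, adjusted p = 0.0150; 3.77-fold, adjusted p = 0.000577).

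CARS1 and TARS1, for cysteine and threonine, lay nearer to their fibroblast levels in iPSCs. CARS1 had 155, 32.7, 102 and 101 CPM, 3.10-fold higher in iPSCs than in iNSLCs (edgeR adjusted p = 0.00342) and 1.53-fold lower than in fibroblasts (adjusted p = 0.00984; 0.782 with total counts). TARS1 had 386, 143, 360 and 347 CPM, 2.47-fold higher than in iNSLCs (adjusted p = 0.00513) with no call against fibroblasts (adjusted p = 0.390), and was called higher than in fibroblasts with total counts (log2 0.44, adjusted p = 0.0280). NARS1, IARS1, MARS1 and YARS1, for asparagine, isoleucine, methionine and tyrosine, were called lower than in fibroblasts by 1.59-fold to 2.02-fold. They were called higher than in iNSLCs by 1.60-fold to 1.89-fold, and the fibroblast calls of IARS1 and MARS1 were lost with total counts. For MARS1, 2223 of 4638 exon bases are shared with ARHGAP9 and DDIT3 on the opposite strand, and reads there could not be assigned to one gene. EPRS1, for glutamate and proline, had 568, 252, 323 and 310 CPM, with a fall against fibroblasts (1.79-fold, adjusted p = 0.00385; 0.100 with total counts) and no call against iNSLCs (1.26-fold, adjusted p = 0.105).

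LARS1, VARS1 and WARS1 departed from the other synthetases. LARS1, for leucine, had 260, 219, 278 and 283 CPM, and VARS1, for valine, had 231, 200, 266 and 251 CPM. Neither was called in either comparison (edgeR adjusted p = 0.460 and 0.0847 for LARS1, 0.314 and 0.0866 for VARS1), and both were called higher than in fibroblasts with total counts (log2 0.68 and 0.73). WARS1, for tryptophan, is also known as an interferon-induced gene. It had 975, 202, 115 and 114 CPM, falling 8.52-fold in iPSCs against fibroblasts (log2 -3.09 ± 0.11, adjusted p = 0.000190) and 1.76-fold against iNSLCs (log2 -0.82 ± 0.11, adjusted p = 0.0115).

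**Figure D4:**
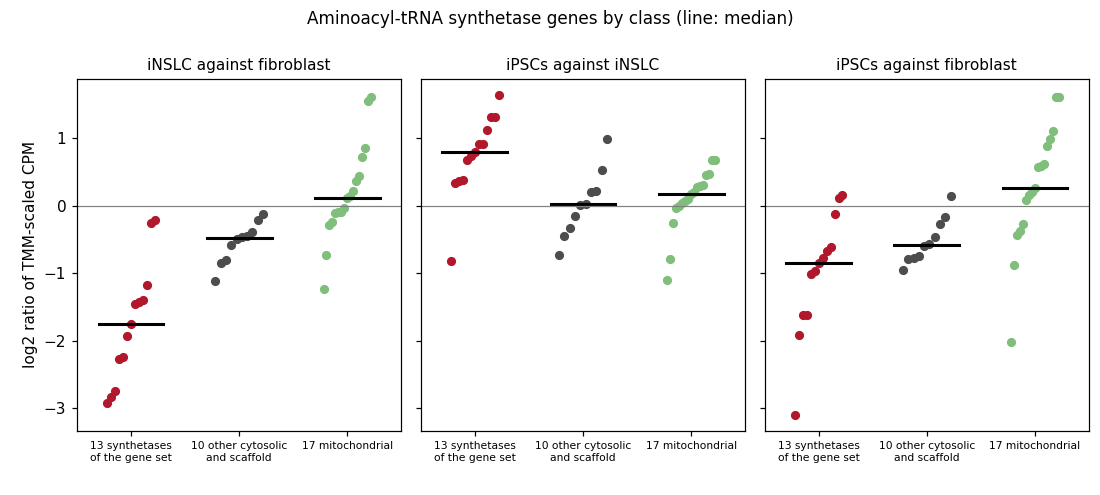
log2 ratios of TMM-scaled CPM (vertical axis) for 3 classes of aminoacyl-tRNA synthetase genes in 3 comparisons, each point a gene and each line a class median. For iNSLCs against fibroblasts the medians are -1.76 for the 13 cytosolic synthetases of the set, -0.48 for 10 other cytosolic synthetases and scaffold genes and 0.11 for 17 mitochondrial ones.

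Synthetases outside the set were compared as lists. Of 10 other cytosolic synthetases and scaffold proteins of their complex, 6 fell and none rose in iPSCs against fibroblasts (1 and 2 with total counts). The shares of all genes were 27.5% and 29.6% (16.8% and 44.9% with total counts). Against iNSLCs 2 were higher and 1 lower, beside 14.1% and 14.1% of all genes. Only 1 of the 10 was at least 2-fold lower in iNSLCs than in fibroblasts, where 11 of the 13 and 14.6% of all genes were. QARS1, AIMP1 and FARSB fell 1.93-fold, 1.73-fold and 1.68-fold against fibroblasts. EEF1E1, a scaffold protein, was 1.99-fold higher in iPSCs than in iNSLCs (edgeR adjusted p = 0.0108), RARS1 was 1.44-fold higher (adjusted p = 0.0371) and QARS1 1.67-fold lower (adjusted p = 0.0151).

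Of the 17 mitochondrial synthetases, which serve translation inside mitochondria, 7 rose and 2 fell in iPSCs against fibroblasts (11 and 1 with total counts). Shares of all genes were 29.6% and 27.5% (44.9% and 16.8% with total counts). Against iNSLCs 1 was higher and 2 lower, beside 14.1% and 14.1% of all genes. AARS2 and EARS2 rose 3.04-fold and 2.15-fold against fibroblasts. WARS2, the mitochondrial counterpart of WARS1, fell 4.05-fold against fibroblasts (edgeR adjusted p = 0.000945) and 1.73-fold against iNSLCs (adjusted p = 0.0339). VARS2 was 2.13-fold lower than in iNSLCs (adjusted p = 0.0150) and EARS2 1.59-fold higher (adjusted p = 0.0400). With DESeq2, 4 of the mitochondrial synthetases rose and 2 fell against fibroblasts, and 0 were higher and 1 lower than in iNSLCs. How the classes differ was described by these counts and medians and was not tested.

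The eIF2α regulators moved in different ways. EIF2AK3, or PERK, the eIF2α kinase of the endoplasmic reticulum, had 79.2, 31.1, 19.4 and 22.3 CPM. It was 3.80-fold lower in iPSCs than in fibroblasts (edgeR adjusted p = 0.000766) and below iNSLCs in both clones (1.49-fold, adjusted p = 0.0530). EIF2AK4, or GCN2, the kinase that senses uncharged tRNA, had 92.6, 74.2, 74.2 and 74.3 CPM, with no call against iNSLCs (adjusted p = 0.995) or fibroblasts (1.247-fold lower, adjusted p = 0.0681). That second difference passed when only the compared groups were fitted (adjusted p = 0.0400) or without the count filter (adjusted p = 0.0446), and its direction turned with total counts (log2 0.25). Of its 10801 exon bases, 2819 are shared with SRP14 on the opposite strand. PPP1R15A, or GADD34, the subunit that directs eIF2α dephosphorylation and is itself induced by the response, had 64.2, 27.1, 58.8 and 55.1 CPM. It was 2.10-fold higher in iPSCs than in iNSLCs (adjusted p = 0.00922) with no call against fibroblasts (adjusted p = 0.283), though it was called higher there with total counts (log2 0.40, adjusted p = 0.0489).

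Between the clones the 48 genes were close. The ratio of clone 2 to clone 1 was at most 1.21-fold in either direction for 41 genes, and none of the 48 differed by 2-fold at 10 CPM, where 0.14% of all genes were that much higher in clone 2 and 0.743% lower. The median log2 ratio was -0.04, beside 0.03 over all genes. ATF5 (1.62-fold, 1.49 to 1.76), CEBPB (1.57-fold, 1.42 to 1.74), DDIT3 (2.07-fold, 1.55 to 2.77) and GDF15 (2.20-fold, 1.37 to 3.54) were 1.5-fold or more higher in clone 1. SHMT1, DDIT4 and TRIB3 were 1.36-fold, 1.26-fold and 1.26-fold higher there. The 7 genes that differed most between clones thus lay higher in clone 1, and 6 of them were transcription factors or stress effectors. ATF4 itself differed by 1.004-fold (0.981 to 1.027).

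Other genes reported as ATF4-associated gave a similar split. Of 18 measured, 13 fell and 2 rose in iPSCs against fibroblasts (8 and 5 with total counts, 11 and 1 with DESeq2). The shares of all genes were 27.5% and 29.6% (16.8% and 44.9% with total counts). Against iNSLCs 9 were higher and 2 lower, beside 14.1% and 14.1% of all genes. In iNSLCs 12 were at least 2-fold lower than in fibroblasts, beside 14.6% of all genes. PCK2, the mitochondrial PEP carboxykinase, had 255, 16.2, 149 and 141 CPM (8.92-fold over iNSLCs, edgeR adjusted p = 0.00151). STC2, a secreted glycoprotein, had 156, 12.4, 95.5 and 106 CPM (8.10-fold, adjusted p = 0.00176). Both followed the most frequent order of the set. NIBAN1, a stress-induced regulator of translation, had the same order, with iPSCs close to iNSLCs, at 511, 17.9, 22.8 and 23.3 CPM (22.2-fold under fibroblasts, adjusted p = 0.000165), and the glycine transporter SLC6A9 had 152, 4.57, 19.2 and 17.6 CPM (8.29-fold under fibroblasts, adjusted p = 0.000227). UPP1, a uridine phosphorylase, was higher in iPSCs than in both others at 5.03, 4.64, 79.3 and 41.2 CPM. SESN3, a relative of SESN2, was highest in iNSLCs at 31.8, 274, 29.6 and 36.7 CPM (iPSCs 8.27-fold lower, adjusted p = 0.00186). FGF21 was at or below 1.18 CPM in each library.

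Folate and purine genes use the one-carbon units. In iNSLCs 3 of 17 folate genes and 1 of 9 purine genes were at least 2-fold lower than in fibroblasts, shares near the 14.6% of all genes. Of 17 genes of the folate cycle, glycine and methionine, 7 rose and 2 fell in iPSCs against fibroblasts (11 and 2 with total counts). Shares of all genes were 29.6% and 27.5% (44.9% and 16.8% with total counts). Against iNSLCs 5 were higher and none lower, beside 14.1% and 14.1% of all genes. The median log2 ratio for iNSLCs against fibroblasts was 0.52. GLDC, which cleaves glycine, had 2.22, 52.9, 84.6 and 85.5 CPM (38.2-fold over fibroblasts, edgeR adjusted p = 0.000168; 1.61-fold over iNSLCs, adjusted p = 0.0205). AMT, of the same glycine cleavage system, and AHCY, of the methionine cycle, rose 54.2-fold and 7.45-fold against fibroblasts. CBS, which condenses serine with homocysteine, followed the serine enzymes instead, at 94.8, 23.2, 78.9 and 82.7 CPM (3.48-fold over iNSLCs, adjusted p = 0.00309). ALDH1L1, the cytosolic counterpart of ALDH1L2, had 1.30, 2.02, 5.70 and 6.34 CPM (2.97-fold over iNSLCs, adjusted p = 0.0385).

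Of 9 purine synthesis genes, 6 rose and 1 fell in iPSCs against fibroblasts (8 and 1 with total counts). Shares of all genes were 29.6% and 27.5% (44.9% and 16.8% with total counts). Against iNSLCs 1 was higher and 1 lower, near the 14.1% and 14.1% of all genes. PPAT, the enzyme of the first committed step, had 7.19, 72.8, 109 and 93.2 CPM (14.03-fold over fibroblasts, edgeR adjusted p = 0.000289). PAICS and ATIC rose 3.08-fold and 2.92-fold. IMPDH1 fell 2.69-fold against fibroblasts and was 1.45-fold higher than in iNSLCs (adjusted p = 0.0417), and GART was 1.36-fold lower than in iNSLCs (adjusted p = 0.0495). With DESeq2, 5 of the purine genes rose and 1 fell against fibroblasts, and 0 were called in either direction against iNSLCs.

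Of 14 other amino acid transporters, 8 rose and 2 fell in iPSCs against fibroblasts (10 and 2 with total counts). Shares of all genes were 29.6% and 27.5% (44.9% and 16.8% with total counts). Against iNSLCs 8 were higher and 1 lower, beside 14.1% and 14.1% of all genes. SLC7A8, a further light chain for SLC3A2, had 38.7, 946, 976 and 982 CPM and rose 25.3-fold against fibroblasts (edgeR adjusted p = 0.000168). It was therefore high in iNSLCs, where SLC7A5 was low. SLC1A1, a glutamate and aspartate transporter, had 4.23, 2.16, 70.2 and 66.8 CPM (16.2-fold over fibroblasts, adjusted p = 0.000234; 31.7-fold over iNSLCs, adjusted p = 0.00111). SLC3A1, a heavy chain for another transporter of cystine and basic amino acids, had 0.0864, 1.08, 13.3 and 14.2 CPM. SLC38A4 was 8.82-fold over iNSLCs (adjusted p = 0.00635), and SLC43A1 was at or below 1.10 CPM in each library.

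Of the eIF2 subunits, eIF2B subunits and other eIF2 regulators (12 measured), 2 fell and none rose in iPSCs against fibroblasts (1 and 4 with total counts). The shares of all genes were 27.5% and 29.6% (16.8% and 44.9% with total counts). Against iNSLCs 4 were higher and none lower, beside 14.1% and 14.1% of all genes. EIF2B4, a subunit of the exchange factor for eIF2, fell 3.06-fold (edgeR adjusted p = 0.00107) and GCN1, an activator of GCN2, 1.34-fold (adjusted p = 0.0317). EIF2S2, the β subunit of eIF2, had 651, 193, 533 and 435 CPM (2.503-fold over iNSLCs, adjusted p = 0.0107). EIF2S1, the α subunit that is phosphorylated, EIF2S3 and IMPACT were 1.42-fold to 1.48-fold higher than in iNSLCs.

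The other arms of the endoplasmic reticulum stress response, run by ATF6 and by IRE1 with XBP1, were described with 18 genes. Of these, 10 fell and 1 rose in iPSCs against fibroblasts (9 and 8 with total counts). The shares of all genes were 27.5% and 29.6% (16.8% and 44.9% with total counts). Against iNSLCs 6 were higher and 3 lower (6 and 1 with DESeq2), beside 14.1% and 14.1% of all genes. In iNSLCs 9 were at least 2-fold lower than in fibroblasts, beside 14.6% of all genes. ATF6 had 707, 113, 55.8 and 56.0 CPM (12.6-fold under fibroblasts, edgeR adjusted p = 0.000168; 2.02-fold under iNSLCs, adjusted p = 0.00729). ERN1, which encodes IRE1α, fell 34.3-fold against fibroblasts to very low levels (11.4, 0.419, 0.338 and 0.328 CPM). SEL1L fell 6.44-fold and DNAJB9 6.11-fold. HSPA5, the chaperone BiP, had 1791, 416, 922 and 765 CPM, with iPSCs 2.03-fold over iNSLCs (adjusted p = 0.0159). MANF and HSP90B1 were 1.95-fold and 1.62-fold higher than in iNSLCs.

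Most glutathione and NRF2 target genes were higher in iPSCs than in iNSLCs. Of 9 tested, 7 were higher in iPSCs than in iNSLCs and none lower, beside 14.1% and 14.1% of all genes. Against fibroblasts 3 rose and 3 fell (5 and 2 with total counts). Shares of all genes were 29.6% and 27.5% (44.9% and 16.8% with total counts). SRXN1, TXNRD1, NQO1 and GCLC were 6.67-fold, 4.56-fold, 4.25-fold and 3.31-fold higher than in iNSLCs. NQO1 rose 4.11-fold against fibroblasts, and ME1 and GSS fell 2.18-fold and 1.79-fold. SLC7A11, which supplies cystine for glutathione, is also a known NRF2 target.

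Proline breakdown and glutamine genes (8 measured) gave 2 rises and 2 falls against fibroblasts (5 and 2 with total counts). This was near the shares of all genes, 29.6% and 27.5% (44.9% and 16.8% with total counts). Against iNSLCs 3 were higher, where 14.1% of all genes were. GLUL, glutamine synthetase, rose 2.16-fold, while P4HA1, a collagen prolyl hydroxylase, fell 9.20-fold and GLUD1 fell 1.999-fold. Against iNSLCs, GLUD1 was 2.10-fold higher.

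Of 8 p53 target genes, 6 fell in iPSCs against fibroblasts and none rose (6 and 1 with total counts). The shares of all genes were 27.5% and 29.6% (16.8% and 44.9% with total counts). Against iNSLCs 1 was higher and 2 lower, beside 14.1% and 14.1% of all genes. CDKN1A, an inhibitor of cyclin-dependent kinases, had 110, 15.2, 8.19 and 7.89 CPM (13.7-fold under fibroblasts, edgeR adjusted p = 0.000186; 1.90-fold under iNSLCs, adjusted p = 0.0141). ZMAT3 fell 7.32-fold and 2.95-fold, and FAS and MDM2 fell 4.79-fold and 2.60-fold against fibroblasts. GADD45A was 1.67-fold higher than in iNSLCs (adjusted p = 0.0168). The vector set encoded a dominant-negative p53, and the part of the vectors was not tested.

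Of 11 mTORC1 components and sensors, 5 fell and 2 rose in iPSCs against fibroblasts (2 and 4 with total counts). Of all genes, 27.5% fell and 29.6% rose (16.8% and 44.9% with total counts). Against iNSLCs, 2 were higher and 2 lower, near the 14.1% and 14.1% of all genes. RRAGD, a Rag GTPase that carries the amino acid signal to mTORC1, had 3.84, 32.9, 107 and 100.4 CPM (27.0-fold over fibroblasts, edgeR adjusted p = 0.000176; 3.16-fold over iNSLCs, adjusted p = 0.00371). DEPDC5 rose 2.37-fold, and SAMTOR and LAMTOR1 fell 4.03-fold and 1.99-fold. Against iNSLCs, SAMTOR and TSC2 were 2.24-fold and 1.67-fold lower and RHEB was 1.48-fold higher.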

How the data were processed

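The submitters' processing notes name Trim Galore 0.4.0 for trimming, STAR 2.5.3a for alignment to Sscrofa11.1 and featureCounts 1.5.2 for counting. The annotation release, the strand setting and the study's model for these libraries are not given in the sources used here. The authors deposited raw counts per gene, not normalized, and the whole-series table was equal to the sample files in all 25880 rows. Genes were named by Ensembl identifier (14857), else by position (1226) where the row covered at least 80% of 1 RefSeq gene of the same assembly, and 9797 had no name; ATF4 and DDIT3 were named by position. Without a known strand setting, reads in bases that genes on opposite strands share cannot be told apart (15 of the 48 genes share exon bases so). Reads of near-identical gene copies may have been shared between them or dropped.

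Library sizes were scaled with TMM factors in R 4.3.3 with edgeR 4.0.16 and limma 3.58.1 (factors 0.742, 1.11, 1.09 and 1.11 for fibroblast, iNSLC, clone 1 and clone 2). The edgeR quasi-likelihood F test, two-sided, was fitted over all 4 libraries in 3 groups after filterByExpr (15739 genes), with Benjamini-Hochberg adjustment over those genes and a threshold of 0.05. All residual information came from the difference between the clones (1 degree of freedom; common biological coefficient of variation 0.198), so the lone libraries were assumed to vary like the clones. Folds are ratios of TMM-scaled CPM, and the SE of a log2 difference is its size divided by the square root of F. Ratios between lone libraries (iNSLC to fibroblast, or clone to clone) have 95% exact conditional binomial intervals, which cover counting error only. A library under 3 counts was raised to 3 counts, per library, for folds. TPM used the exon lengths of the table.

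The 48 genes, their roles, the pathway and marker lists and the tests were chosen with earlier results of these data known. Values in every library are given for 9 genes chosen by name and, per role, up to 4 members with the largest ratios in each comparison at 10 CPM; other members appear as accounted for. Of each pathway list, up to 4 called members with the largest ratios are named, except some that are not reported here. Alternatives were RLE and total-count scaling, DESeq2 1.42.0, no count filter, only the groups compared, identifier names only, a 1 CPM minimum and leaving out each clone; the scaling of counts of genes lowest in iNSLCs was added after seeing the data. No sequences or promoter motifs were analysed here.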

Additional observations from a re-analysis of the deposited data

How the results depend on the processing

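Total-count scaling moved the fibroblast comparisons, and its shift of all genes is given above. With it, 8 of the 48 genes in place of 2 were called higher in iPSCs than in fibroblasts, 15 in place of 23 were at least 2-fold lower, and the median log2 ratio was -0.35 in place of -0.92. For iNSLCs against fibroblasts the median was -1.61 with total counts and -2.21 with RLE, and for clone 2 against clone 1 it was -0.0233 with total counts. Directions turned for ATF3 (log2 0.23), MTHFD1L (0.13), ASNS (0.28), ALDH18A1 (0.47), SLC3A2 (0.56), SLC1A4 (0.43), SLC38A2 (0.0289), TARS1 (0.44), EIF2AK4 (0.25) and PPP1R15A (0.40) against fibroblasts. Against iNSLCs, EIF2AK4 lay at -0.0119 with total counts, -0.0069 without the count filter and -0.0160 with only the groups compared. Of the other genes, 9 lost a call against fibroblasts with total counts and 3 gained one, and 26 kept direction and side.

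With a minimum of 1 CPM, 2 genes in place of 1 were at least 2-fold higher in iPSCs than in fibroblasts, 2 in place of 1 in iNSLCs than in fibroblasts, and 2 in place of 0 lower in clone 2. Leaving out each clone in turn left no residual spread, so those are values with no test. The number at least 2-fold higher in iPSCs than in fibroblasts was then 1 to 2 (SHMT1 joined SLC7A3 without clone 2), that at least 2-fold lower was 22, and that at least 2-fold higher than in iNSLCs was 20 to 24. The median log2 ratio was -0.93 to -0.91 against fibroblasts and 0.93 to 1.04 against iNSLCs, and GDF15 against iNSLCs was 2.91 to 4.05 on the log2 scale. RLE changed no call of a single gene. In a check added after seeing the data, iNSLCs were lowest for 38 genes with RLE and 34 with total counts, and at least 2-fold under each other library for 18 and 16. No paired analysis was possible because the groups compared share fewer than 2 replicate numbers. The cause of these changes was not tested beyond the scaling itself, and the single fibroblast and iNSLC libraries limit each result.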
